A study of Homo sapiens with 12 samples.

Results

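Kinesins are motor proteins that convert ATP hydrolysis into force along microtubules. Mitotic kinesins build the spindle, move chromosomes and organise the midzone and midbody during cytokinesis, and most of them are made in the G2 and M phases of dividing cells. Transport kinesins carry vesicles, mitochondria, endosomes and ciliary cargo in dividing and resting cells alike. The family was taken as every protein-coding gene of the count table whose symbol is KIF followed by a digit, which gave 39 of 62069 genes. By their known roles 13 were classed as mitotic, 13 as transport and 13 as other, a mixed class of ciliary, signalling and microtubule-regulating motors. Another 13 KIF symbols were pseudogenes or non-coding RNAs, several of them antisense to a member, and were left out.

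RNA-seq libraries came from IMR90 ER:RAS cells, a human lung fibroblast line that carries a RAS oncoprotein joined to an estrogen receptor domain. The drug 4-hydroxytamoxifen (4OHT) switches the fusion on and thereby drives oncogene-induced senescence (OIS). The 4 groups of 3 libraries were non-induced cells, induced cells given 100 nM 4OHT, and induced cells that also expressed shXPO7_3 or shXPO7_5, short hairpin RNAs against the exportin XPO7, a nuclear transport receptor. All groups carried ER:RAS, were labelled passage 13 and day 5, and had been grown for 7 days with new medium on day 4. The labels name no vector in the groups without a hairpin and leave unsaid whether the 3 libraries of each group were separate cultures. P-values therefore weigh differences against the spread within groups, estimated from all 12 libraries together, and that spread may be technical only. Libraries are named by group and by the letter in their label (T, A and C in non-induced cells, T, A and B elsewhere), and values per library are given in that order. Levels are CPM, the counts scaled to a common library total, after TMM scaling, which equalises library composition. A gene was called when its adjusted p was under 0.05 in edgeR's quasi-likelihood test, fitted to all 12 libraries and all genes tested.

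Totals ran from 28534141 to 60397769 counts per library. XPO7, the targeted gene, was at 142, 132 and 129 CPM in non-induced and 127, 144 and 139 CPM in induced libraries. It was at 26.4, 28.6 and 27.9 CPM with shXPO7_3 (log2 fold change over induced -2.30, 95% interval -2.46 to -2.14, adjusted p = 1.24e-08) and at 50.8, 54.00 and 51.8 CPM with shXPO7_5 (log2 fold change -1.39, -1.54 to -1.23, adjusted p = 3.27e-06). The libraries of both hairpins therefore lay below those of both other groups, as their labels state. Fibroblast markers were high throughout, with the 12 genes summing to between 20980 and 32700 CPM, while the 5 blood cell markers summed to at most 0.198 CPM. Other lists were low but not absent. The 5 endothelial markers summed to at most 15.05 CPM, although 2 of them, PECAM1 and CDH5, were at 0 in every library. The 7 epithelial markers summed to at most 90.1 CPM and the 5 muscle and neuron markers to at most 39.55 CPM. The libraries also differed in how strongly their levels followed the GC content of genes. Across 14864 genes, Spearman's correlation between GC content and the log ratio to the induced mean was 0.612 in shXPO7_3 T, 0.648 in shXPO7_5 T and 0.814 in shXPO7_5 B, and lay between -0.368 and 0.336 in the other 9 libraries. Against the non-induced mean it was 0.616 in non-induced T and -0.675 in non-induced C. Members with AT-rich transcripts (KIF20B at 34.1% GC, KIF18A at 37.1%, KIF14 at 37.6%, KIF11 at 38.3%, KIF3A at 38.5%, KIF5B at 39.3%) were low in shXPO7_3 T, shXPO7_5 T and B and non-induced T. A second fit took out, library by library, a smooth trend on GC content and merged exon length, and its values are called corrected below.

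The classes also differed in the sequence at their start sites, which the rule did not use. RefSeq start-site windows on GRCh38.p14, which reach 250 bases before to 50 bases after the start, were at hand for 33 of the 39 members. In cell-cycle genes of G2 and M phase the known control element is the CHR (cell cycle genes homology region), which is bound by the DREAM and MuvB complexes and often lies downstream of CCAAT boxes bound by NF-Y. The windows were searched on both strands for CHR letters (TTTGAA or TTCGAA), the CCAAT box (CCAAT) and a short E2F core (TTTCGCG or TTTGGCG or TTTCCCG or TTTGCCG), and matches of different motifs could share end bases. CHR letters were present in 9 of the 11 mitotic members that passed the filter on low counts (81.8%), or 10 of all 13 (76.9%). They were present in 1 of 11 transport members with a window (9.1%) and in 19.5% of 27305 genes with a window. CHR and CCAAT letters occurred together in 8 of those 11 mitotic members (72.7%), or 9 of all 13 (69.2%), in 1 transport member (KIF5B) and in 7.8% of all genes. The E2F core was found in 2 of the 11 mitotic and 3 of the 11 transport members, against 10.4% of all genes. In the other class, KIF24 was the 1 member of 9 with a window to hold CHR letters, and its match started 2 bases after the start site. These are matches of letters, not binding sites.

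The stretches below run from 100 bases before to 30 bases after the start site. They are shown because KIF4A, KIF23, KIF18B and KIF11 carry the CHR letters (capitals) beside the start, whereas KIF20A, the member that fell most, and KIF3B, a transport member that rose, do not. In KIF11 the capitals are the reverse strand of the same letters. The positions are chrX:70290004-70290133 (plus strand) for KIF4A, chr15:69414249-69414378 (plus) for KIF23, chr17:44947744-44947873 (minus) for KIF18B, chr10:92593030-92593159 (plus) for KIF11, chr5:138179012-138179141 (plus) for KIF20A and chr20:32277551-32277680 (plus) for KIF3B.
KIF4A: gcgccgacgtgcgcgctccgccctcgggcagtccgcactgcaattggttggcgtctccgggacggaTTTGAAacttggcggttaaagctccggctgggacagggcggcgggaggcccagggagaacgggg
KIF23: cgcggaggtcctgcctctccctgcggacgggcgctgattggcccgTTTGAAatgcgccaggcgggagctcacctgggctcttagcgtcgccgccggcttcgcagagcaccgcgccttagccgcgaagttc
KIF18B: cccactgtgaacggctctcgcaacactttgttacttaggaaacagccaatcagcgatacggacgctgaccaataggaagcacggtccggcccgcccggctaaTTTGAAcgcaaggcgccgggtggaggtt
KIF11: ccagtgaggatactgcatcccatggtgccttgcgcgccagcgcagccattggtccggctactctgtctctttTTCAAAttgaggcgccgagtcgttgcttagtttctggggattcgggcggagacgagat
KIF20A: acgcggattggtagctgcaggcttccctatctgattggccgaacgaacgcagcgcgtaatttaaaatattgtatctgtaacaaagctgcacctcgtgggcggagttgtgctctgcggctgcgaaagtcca
KIF3B: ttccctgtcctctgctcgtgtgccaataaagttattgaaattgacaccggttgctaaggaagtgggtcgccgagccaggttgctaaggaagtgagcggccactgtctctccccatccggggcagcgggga
The CHR match started 34 bases before the start site in KIF4A, 55 before it in KIF23, 28 before it in KIF11 and 3 bases after it in KIF18B. KIF20A and KIF2C held no CHR match, which says only that these letters are not in the window.

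**Figure D1:**
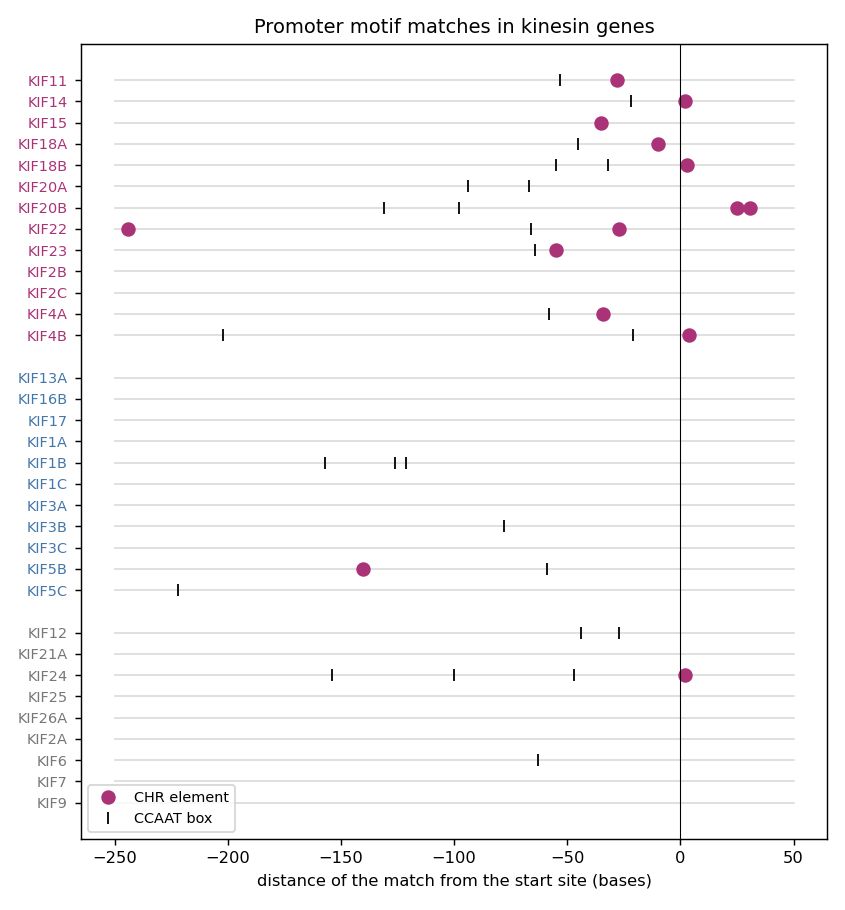
Distance in bases of each match from the RefSeq start site (x axis) in the 33 members with a window (y axis, coloured by class); grey lines span the windows, circles are CHR letters and bars CCAAT letters. CHR matches appear in 10 of 13 mitotic members, most of them near the start site, and among transport members only KIF5B has a match, 140 bases before it.

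Of the 39 members, 32 passed the filter and were tested, among 15284 genes. They were 11 mitotic, all 13 transport and 8 other members. The 7 that did not pass were KIF2B and KIF19 with no count in any library, KIF26A, KIF12, KIF25 and KIF4B with 5, 8, 11 and 18 counts in all, and KIF6 with 54. KIF4B is an intronless, nearly identical copy of KIF4A, so reads of this pair cannot be assigned with certainty, as is the case for members with an antisense gene (KIF9, KIF23, KIF1C), since the strand setting of the counting is not given in the sources used here.

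Induction asked which kinesins change in OIS, and the classes parted. All 11 mitotic members tested fell in induced cells, with a median log2 fold change of -2.42 and a range from -3.50 (KIF20A) to -1.60 (KIF22). Among all genes tested 26.1% were called lower and 24.8% higher, with a median of -0.0068. Of the 13 transport members 3 were called lower and 2 higher, with a median of 0.19, and both shares were below those of all genes. In bulk RNA, fewer cells in mitosis and less RNA per mitotic cell cannot be told apart. The libraries of non-induced and induced cells did not overlap in 11 of 11 mitotic, 12 of 13 transport and 5 of 8 other members, where 63.2% of all genes had groups that did not overlap.

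**Figure D2:**
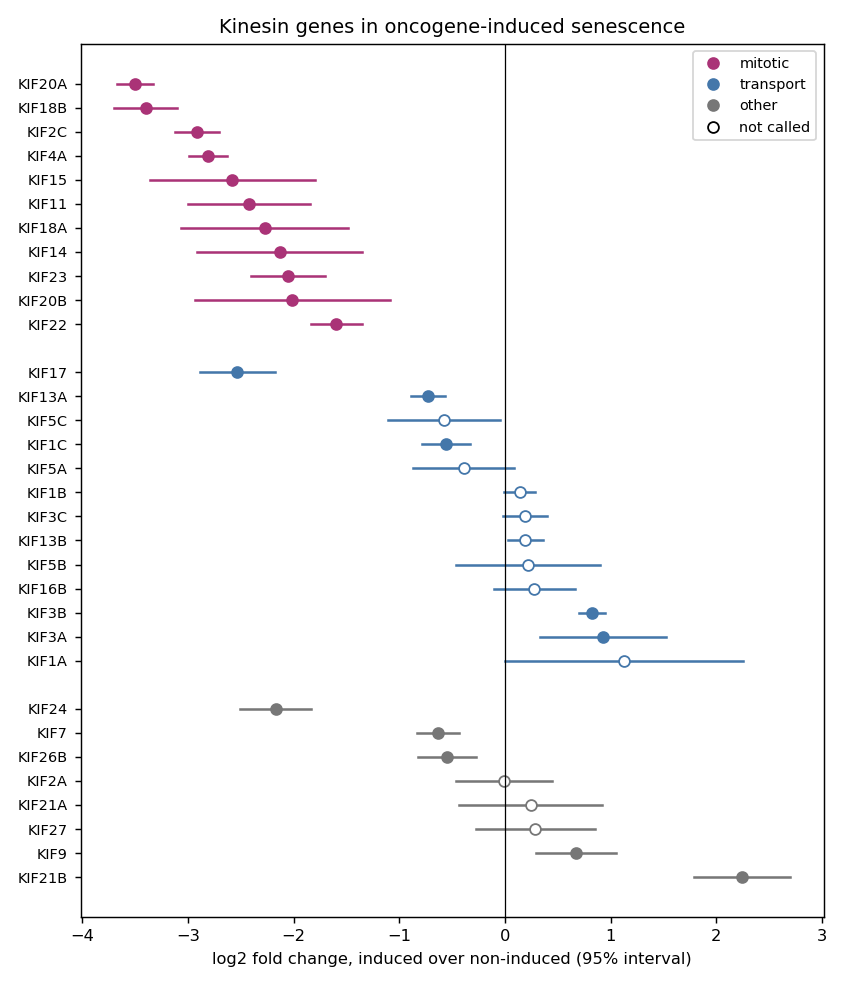
Log2 fold change of induced over non-induced cells with its 95% interval for the 32 members tested, ordered within each class; filled circles were called, open circles were not. The mitotic members run from -3.50 to -1.60, and 8 of 13 transport members sit above 0.

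The motors of the central spindle and of cytokinesis included the member that fell most. KIF20A, which moves the chromosomal passenger complex to the midzone, was at 80.4, 79.9 and 76.00 CPM in non-induced and 7.35, 6.77 and 6.68 CPM in induced libraries, a log2 fold change of -3.50 (-3.67 to -3.34, adjusted p = 1.60e-11). Its induced level was 8.80% of the non-induced level, the lowest share among the 11. KIF4A, a chromokinesin that limits midzone length together with PRC1, was at 54.4, 50.3 and 54.8 CPM in non-induced and 7.32, 7.73 and 7.71 CPM in induced libraries (log2 fold change -2.81, -2.99 to -2.63, adjusted p = 9.32e-11). KIF23, the motor of the centralspindlin complex, was at 62.9, 74.9 and 90.7 CPM in non-induced and 18.8, 19.1 and 17.1 CPM in induced libraries (log2 fold change -2.06, -2.40 to -1.71). KIF14, which brings citron kinase to the midbody, was at 11.99, 20.7 and 31.1 CPM in non-induced and 5.25, 5.17 and 4.18 CPM in induced libraries (log2 fold change -2.13, -2.92 to -1.35). KIF20B, a midbody motor of late cytokinesis, was at 17.9, 30.3 and 49.1 CPM in non-induced and 8.94, 9.07 and 6.25 CPM in induced libraries (log2 fold change -2.01, -2.94 to -1.09, adjusted p = 0.00173). In KIF23, KIF14 and KIF20B the non-induced T library was lowest and C highest, yet each non-induced library lay above each induced one.

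Motors of the spindle and of chromosomes showed the same direction. KIF18B, a plus-end motor of astral microtubules, was at 26.1, 22.7 and 21.4 CPM in non-induced and 2.35, 1.88 and 2.36 CPM in induced libraries, a log2 fold change of -3.40 (-3.70 to -3.10, adjusted p = 1.06e-09). KIF2C, the centromeric microtubule depolymerase also called MCAK, was at 60.4, 56.1 and 54.2 CPM in non-induced and 6.61, 8.05 and 7.95 CPM in induced libraries (log2 fold change -2.92, -3.13 to -2.70). Both fell within narrow intervals and their groups stood far apart. KIF11, the tetramer also called Eg5 that pushes spindle poles apart, was at 43.6, 63.03 and 83.2 CPM in non-induced and 11.9, 13.04 and 10.5 CPM in induced libraries (log2 fold change -2.42, -2.999 to -1.85, adjusted p = 8.89e-06). KIF15, which can stand in for KIF11, was at 9.92, 16.03 and 22.3 CPM in non-induced and 2.54, 3.19 and 2.42 CPM in induced libraries (log2 fold change -2.58, -3.36 to -1.80). KIF18A, which damps chromosome oscillations, was at 10.3, 16.4 and 24.4 CPM in non-induced and 3.47, 4.68 and 2.58 CPM in induced libraries (log2 fold change -2.28, -3.07 to -1.49). KIF22, a chromokinesin of chromosome arms also called KID, was at 53.1, 47.7 and 44.6 CPM in non-induced and 14.5, 16.7 and 16.8 CPM in induced libraries and fell least (log2 fold change -1.60, -1.84 to -1.36, adjusted p = 1.49e-07), keeping 33.1% of its non-induced level. In the corrected fit all 11 were again called lower, with a median of -2.49.

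Transport kinesins held the larger part of kinesin RNA, and per kilobase of exon sequence 3 of them had the highest levels in induced cells. The length was that of all annotated exons of a gene merged, which can exceed that of any single transcript. KIF5B, the ubiquitous heavy chain of conventional kinesin, was at 47.4 ± 18.2 CPM per kb (SD, n = 3) in non-induced and 55.03 ± 6.71 in induced cells, the highest mean of any member in both groups. KIF1C was at 37.2 ± 2.83 and 25.2 ± 0.666 CPM per kb, the next highest mean in non-induced cells. There it lay within the SD of KIF5B, so the order of these 2 is not settled. KIF3B rose from 15.8 ± 0.502 to 27.9 ± 0.458 CPM per kb and lay above KIF1C in induced cells. KIF20A came next after KIF1C in non-induced cells at 19.9 ± 0.603 and was at 1.75 ± 0.0923 in induced cells. In non-induced cells the neighbours KIF3B and KIF2C (15.6 ± 0.865) lay within 1 SD of each other, as did KIF4A (11.7 ± 0.555), KIF23 (11.6 ± 2.11) and KIF22 (11.2 ± 0.995). Summed per kb over each class, the 13 mitotic members were at 102.5 ± 9.72 in non-induced and 18.03 ± 0.988 CPM per kb in induced cells, while the 13 transport members were at 135.9 ± 16.8 and 143.8 ± 6.66. The mitotic share of both sums was 44.1%, 42.4% and 42.6% in non-induced libraries and 10.9%, 11.3% and 11.2% in induced ones, with no overlap.

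**Figure D3:**
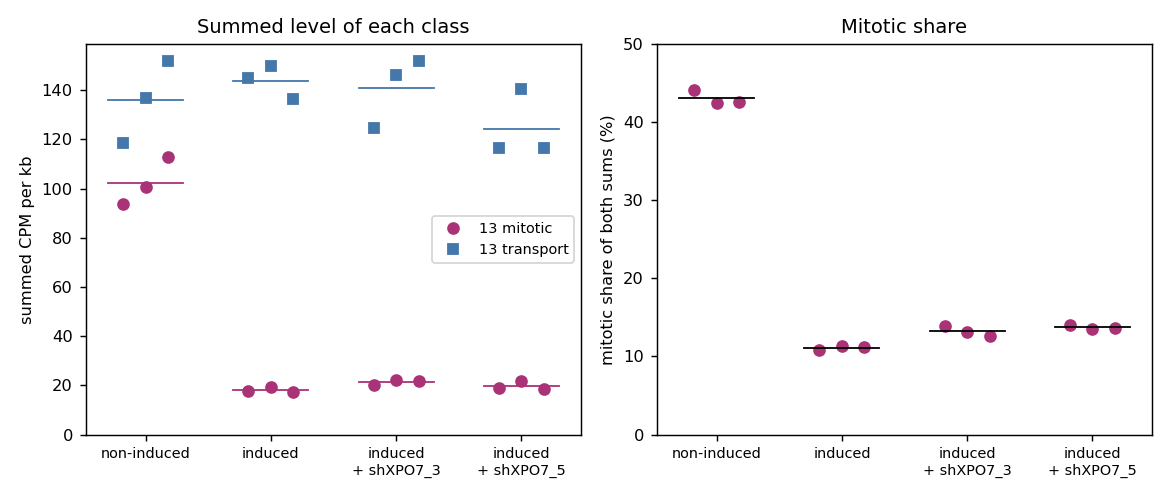
Summed level of the 13 mitotic and 13 transport members per library in CPM per kb (left) and the mitotic share of both sums in percent (right); lines are means of 3 libraries, plotted in the order of their letters. The mitotic share is 42.4% or more in non-induced libraries and 14.1% or less in all libraries given 4OHT.

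Within the transport class, the kinesin-2 motors of cilia moved in opposite directions. KIF3B, a motor subunit of the heterotrimer that drives anterograde intraflagellar transport, was at 93.8, 95.4 and 99.8 CPM in non-induced and 168, 173 and 171 CPM in induced libraries and rose by 0.82 on the log2 scale (0.70 to 0.95, adjusted p = 1.86e-07). Its partner KIF3A was at 12.8, 19.5 and 24.3 CPM in non-induced and 36.1, 38.7 and 32.8 CPM in induced libraries and also rose (log2 fold change 0.93, 0.33 to 1.52, adjusted p = 0.0132). KIF17, the homodimeric kinesin-2 of dendrites and cilia, was at 6.21, 5.90 and 5.75 CPM in non-induced and 0.875, 1.03 and 1.15 CPM in induced libraries and fell (log2 fold change -2.54, -2.89 to -2.18, adjusted p = 7.36e-08), the only transport member to fall as far as the mitotic class. KIF3C, another partner of KIF3A, was at 61.9, 54.8 and 54.9 CPM in non-induced and 65.5, 64.6 and 65.3 CPM in induced libraries and was not called (log2 fold change 0.19, -0.02 to 0.39, adjusted p = 0.117).

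Among the kinesin-3 vesicle carriers KIF1C and KIF13A fell, while conventional kinesin gave no call. KIF1C, a fast carrier of integrin vesicles, was at 344, 319 and 295 CPM in non-induced and 215, 212 and 223 CPM in induced libraries and fell (log2 fold change -0.56, -0.79 to -0.33, adjusted p = 7.89e-04). KIF13A, a carrier of endosomes and the mannose-6-phosphate receptor, was at 106, 116 and 115 CPM in non-induced and 67.4, 66.6 and 69.3 CPM in induced libraries and fell too (log2 fold change -0.73, -0.89 to -0.57, adjusted p = 4.95e-06). KIF1B, which carries mitochondria and lysosomes, was at 114, 112 and 120.0 CPM in non-induced and 127, 130.2 and 123 CPM in induced libraries (log2 fold change 0.14, adjusted p = 0.120). KIF5B was at 168, 287 and 381 CPM in non-induced and 336, 355 and 279 CPM in induced libraries, and here the groups overlapped, with non-induced T low and C high (log2 fold change 0.22, -0.47 to 0.90, adjusted p = 0.592). Without non-induced T its fold change was -0.045. The remaining transport members were not called, with log2 fold changes of 0.19 for the vesicle carrier KIF13B, 0.27 for the early endosome carrier KIF16B, 1.13 for the neuronal vesicle carrier KIF1A, which was at 0.248 CPM or less in both groups, and -0.39 and -0.58 for the neuronal heavy chains KIF5A and KIF5C. In the corrected fit 6 transport members were called higher, against 35.5% of all genes, and 4 lower, against 29.4%: KIF1A, KIF1B, KIF3C and KIF13B joined the first group and KIF5C the second.

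**Figure D4:**
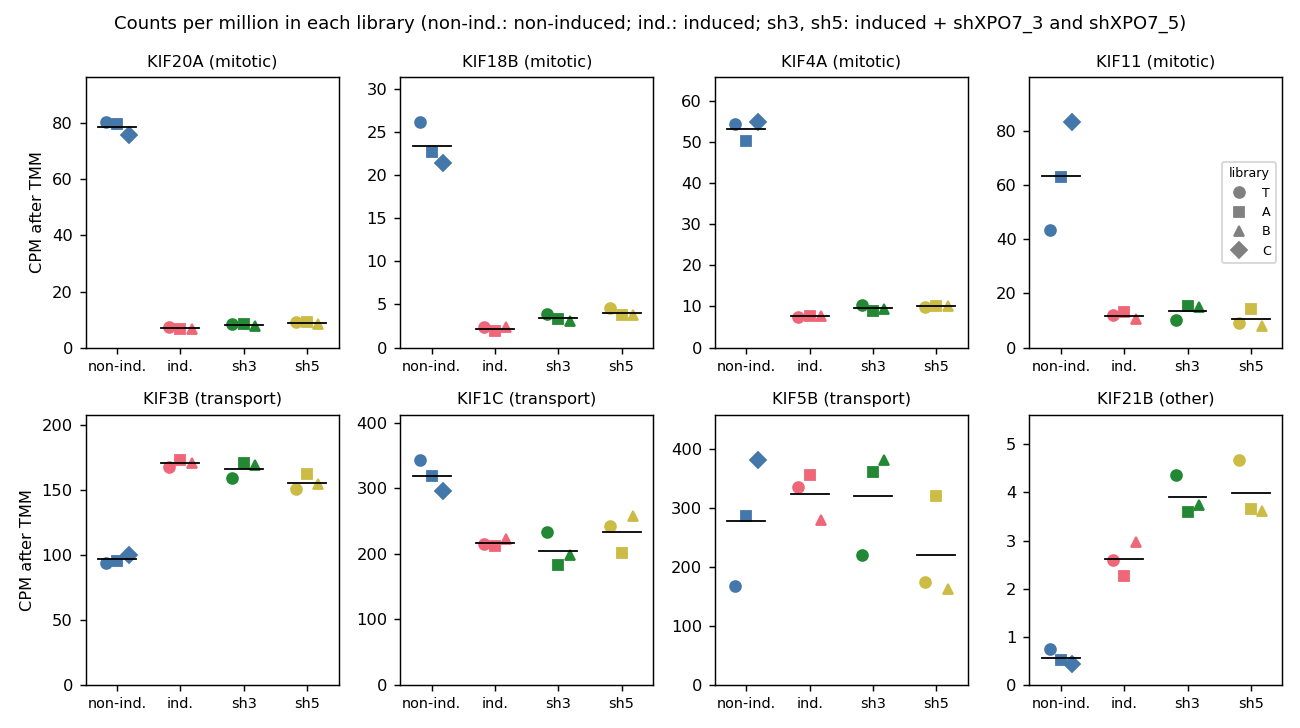
Level in CPM of 8 members in every library (symbols by library letter, lines are means of 3 libraries; axes start at 0). KIF20A, KIF18B, KIF4A and KIF11 drop in induced cells, KIF3B and KIF21B rise, and KIF5B spreads between libraries of 1 group.

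In the other class 3 of 8 members tested fell and 2 rose on induction, with a median of 0.12, against 26.1% of all genes called lower and 24.8% called higher. KIF24, a centriolar depolymerase that restrains cilium formation, was at 9.49, 10.2 and 9.24 CPM in non-induced and 1.995, 2.02 and 2.36 CPM in induced libraries (log2 fold change -2.17, -2.51 to -1.83, adjusted p = 1.91e-07), a value within the range of the mitotic class. KIF21B, which regulates microtubule growth, rose most of all members, from 0.742, 0.510 and 0.425 to 2.60, 2.27 and 2.96 CPM (log2 fold change 2.24, 1.79 to 2.69, adjusted p = 2.16e-06). KIF7, the cilium-tip kinesin of Hedgehog signalling, fell by 0.63 on the log2 scale (adjusted p = 1.12e-04) and KIF26B, an atypical kinesin of signalling and adhesion, fell by 0.55 (adjusted p = 0.00283). KIF9, a motor of motile cilia, rose by 0.67 (adjusted p = 0.00644). KIF2A, a depolymerase of interphase and spindle poles, was at -0.0097 (-0.46 to 0.44), KIF21A at 0.24 and KIF27 at 0.29, and none of them was called.

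Genes that work with these motors were read from lists of known partners, whose counts stand against 26.1% called lower and 24.8% called higher among all genes in OIS. All 20 genes of the mitotic partner list (chromosomal passenger complex, centralspindlin, kinetochore and spindle factors) had lower values in OIS and 19 were called lower, with a median of -2.46. They included HMMR (-3.19), the passenger subunit BIRC5 (-3.15) and the kinase PLK1 (-3.08), while ECT2, which acts in cytokinesis, was not called (-0.68, adjusted p = 0.0918). Of 5 other kinesins, whose symbols do not follow the pattern, 3 fell, namely the kinetochore motor CENPE (-2.59), the minus-end motor KIFC1 (-2.40) and, less, STARD9 (-0.46). Of 10 tubulins tested 8 fell, with TUBB2B (-1.53), TUBB (-0.91) and TUBA1B (-0.89) leading, although reads of near-identical tubulins may be split between copies. As counted, the shares called higher in the accessory, intraflagellar transport and Hedgehog lists were below that of all genes. Of 17 kinesin-1 and kinesin-2 accessory genes 4 rose and 1 fell, led by the light chain KLC2 (0.55) and the mitochondrial adaptor TRAK2 (0.55). Of 26 dynein and dynactin genes, the machinery of transport towards the minus end, 12 rose and 2 fell, led by DYNC1I1 (1.71), DYNLT3 (1.24) and BICD1 (0.66). Of 18 intraflagellar transport genes 3 rose and 2 fell, among them IFT20 (0.65), IFT140 (-0.52) and IFT27 (0.43). Of 10 Hedgehog pathway genes 2 rose and 4 fell, led by GAS1 (-1.71), SMO (-0.86) and GLI3 (-0.64). The corrected fit called 35.5% of all genes higher. It called 12 of 17 accessory, 14 of 26 dynein and dynactin, 6 of 18 intraflagellar transport and 2 of 10 Hedgehog genes higher. All 20 mitotic partners, ECT2 among them, were called lower in that fit, against 29.4% of all genes.

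Levels of other cell type markers moved with induction too, where 26.1% of all genes were called lower and 24.8% higher. The 7 epithelial markers summed to between 75.0 and 90.1 CPM in non-induced and between 41.5 and 47.8 CPM in induced libraries, with KRT19 lower by a log2 fold change of -4.06, and 4 of 5 tested were called lower. The 5 muscle and neuron markers summed to between 20.95 and 25.7 and between 30.3 and 34.2 CPM, with 3 of 4 tested called lower, led by DES (-3.74), and SYT1 called higher (0.89). The 5 endothelial markers summed to between 14.6 and 15.05 and between 9.39 and 10.25 CPM, with 1 of 3 tested lower. Of the 12 fibroblast markers 6 fell as well, led by DCN (-3.37). Their part in the kinesin results was not tested.

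Knockdown of XPO7 in induced cells asked whether kinesin levels in OIS change with less of this exportin. Both hairpins were compared with the same 3 induced libraries, which also enter the OIS comparison, so the comparisons are not independent. With shXPO7_3 no member was called (19 genes, 0.124% of those tested, were called in all), while DESeq2 also called none and 6 members had an unadjusted p under 0.05. All 11 mitotic members tested had values above 0, where 7478 of 15284 genes did, with a median log2 fold change of 0.23. The transport median was -0.014. Members were measured in the same libraries, so their signs are not independent. By library, the median log2 ratio of the 11 to the induced mean was -0.14 in shXPO7_3 T, 0.27 in A and 0.34 in B. Unadjusted p-values under 0.05 and a higher level were found for 4 of 11 mitotic, 0 of 13 transport and 2 of 8 other members, against 3.54% of all genes. The libraries did not overlap with the induced ones in 5 of 11 mitotic, 0 of 13 transport and 2 of 8 other members, against 14.6% of all genes. With shXPO7_5 KIF18B was called higher, and 0.589% of all genes were called. The mitotic median was 0.011 there, with 6 of 11 members above 0 and 5 below, where 7746 of 15284 genes were above 0. By library the mitotic median ratio was -0.24 in shXPO7_5 T, 0.25 in A and -0.18 in B. The transport median fold change was 0.0053. Higher levels at an unadjusted p under 0.05 were found for 5 of 11 mitotic, 0 of 13 transport and 3 of 8 other members, against 12.3% of all genes. At that p 2 transport members and 1 other member were lower, against 9.28% of all genes. The groups did not overlap in 5 of 11 mitotic, 2 of 13 transport and 2 of 8 other members, against 26.8% of all genes.

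KIF18B had the largest value among mitotic members with both hairpins. From 2.35, 1.88 and 2.36 CPM in induced libraries it stood at 3.90, 3.26 and 3.03 CPM with shXPO7_3 (log2 fold change 0.61, 0.30 to 0.92, adjusted p = 0.162) and at 4.55, 3.83 and 3.79 CPM with shXPO7_5 (log2 fold change 0.87, 0.56 to 1.178, adjusted p = 0.02001). Every knockdown library lay above every induced one. The call with shXPO7_5 was lost without any 1 of induced T, A or B (adjusted p = 0.0934, 0.105 and 0.078), without shXPO7_5 T (0.101) or B (0.057), and in a fit to only these groups (0.0862), while the fold change stayed between 0.78 and 0.93. Without shXPO7_5 A, 13 members were called in that comparison, and without shXPO7_3 T, 2. The former fit keeps shXPO7_5 T and B, whose correlations with GC content were 0.648 and 0.814, and their part in that count was not tested. Shares of all genes called in these fits are not given here, so these counts are not read as a result about kinesins.

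KIF4A, KIF2C and KIF20A had smaller values and little spread between libraries. KIF4A was at 10.4, 8.79 and 9.37 CPM with shXPO7_3 (0.33, 0.15 to 0.51, adjusted p = 0.216) and at 9.90, 10.2 and 10.1 CPM with shXPO7_5 (0.40, 0.23 to 0.58, adjusted p = 0.05003, just above the threshold). KIF2C was at 10.6, 9.21 and 9.82 CPM with shXPO7_3 (0.39, adjusted p = 0.197) and 10.5, 9.60 and 10.1 CPM with shXPO7_5 (0.42, adjusted p = 0.0743). KIF20A was at 8.48, 8.30 and 7.87 CPM with shXPO7_3 (0.24, adjusted p = 0.413) and 9.06, 9.12 and 8.33 CPM with shXPO7_5 (0.35, adjusted p = 0.0615). In these genes all knockdown libraries lay above all induced libraries, yet none passed the test. KIF22 was at 20.9, 17.6 and 17.2 CPM with shXPO7_3 and 20.1, 17.1 and 20.5 CPM with shXPO7_5, with log2 fold changes of 0.21 and 0.26 (adjusted p = 0.888 and 0.215).

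The AT-rich mitotic members spread between libraries of a group and gave wide intervals. KIF11 was at 10.02, 15.4 and 14.98 CPM with shXPO7_3 (0.19, -0.37 to 0.76) and 9.20, 14.1 and 7.86 CPM with shXPO7_5 (-0.18, -0.75 to 0.39). KIF20B was at 6.92, 12.9 and 10.8 CPM with shXPO7_3 (0.34, -0.58 to 1.26) and 4.14, 9.48 and 2.89 CPM with shXPO7_5 (-0.55, -1.51 to 0.41). Both were low in shXPO7_3 T and in shXPO7_5 T and B, the libraries whose levels rose with GC content, and above every induced library in the other knockdown libraries. KIF18A was at 2.63, 4.35 and 4.87 CPM with shXPO7_3 (0.18) and 1.89, 3.93 and 1.94 CPM with shXPO7_5 (-0.44), and KIF14 at 3.38, 6.37 and 6.71 CPM with shXPO7_3 (0.19) and 2.96, 5.80 and 2.98 CPM with shXPO7_5 (-0.31). KIF15 was at 1.84, 4.05 and 3.57 CPM with shXPO7_3 (0.23) and 2.12, 4.14 and 1.88 CPM with shXPO7_5 (0.01), and KIF23 at 16.6, 21.1 and 21.4 CPM with shXPO7_3 (0.11) and 15.5, 21.6 and 16.1 CPM with shXPO7_5 (-0.05). In these 4 genes too shXPO7_3 T and shXPO7_5 T and B lay below the other libraries of their groups.

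Across members, fold changes of shXPO7_5 followed GC content. Spearman's correlation was 0.927 over the 11 mitotic, 0.879 over the 13 transport and 0.798 over all 32 members, against 0.693 over 14864 genes, where the points share the same 6 libraries. For shXPO7_3 it was 0.464, 0.297 and 0.27, against 0.114. In the corrected fit, where the value over all genes was 0.0064 for shXPO7_5, it was 0.773 over mitotic and 0.626 over transport members, below the values as counted. That fit called 3 mitotic members higher with shXPO7_3, against 1.6% of all genes, namely KIF2C (0.40, adjusted p = 0.0107), KIF4A (0.36, 0.0217) and KIF18B (0.58, 0.0272). With shXPO7_5 it called 5 members higher, against 2.24% of all genes, namely KIF18B (0.66, adjusted p = 0.0126), KIF4A (0.45, 0.00577), KIF2C (0.39, 0.0138), KIF20A (0.33, 0.0177) and KIF26B (0.36, 0.0304). No transport member was called in either. Corrected medians of the mitotic class were 0.25 with shXPO7_3 (11 of 11 above 0) and 0.20 with shXPO7_5 (9 of 11 above 0). Of 15284 genes 7685 and 8088 were above 0 in these corrected comparisons. Corrected medians of the transport class were -0.012 and -0.071. What part GC content has in the uncorrected values beyond this was not tested.

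**Figure D5:**
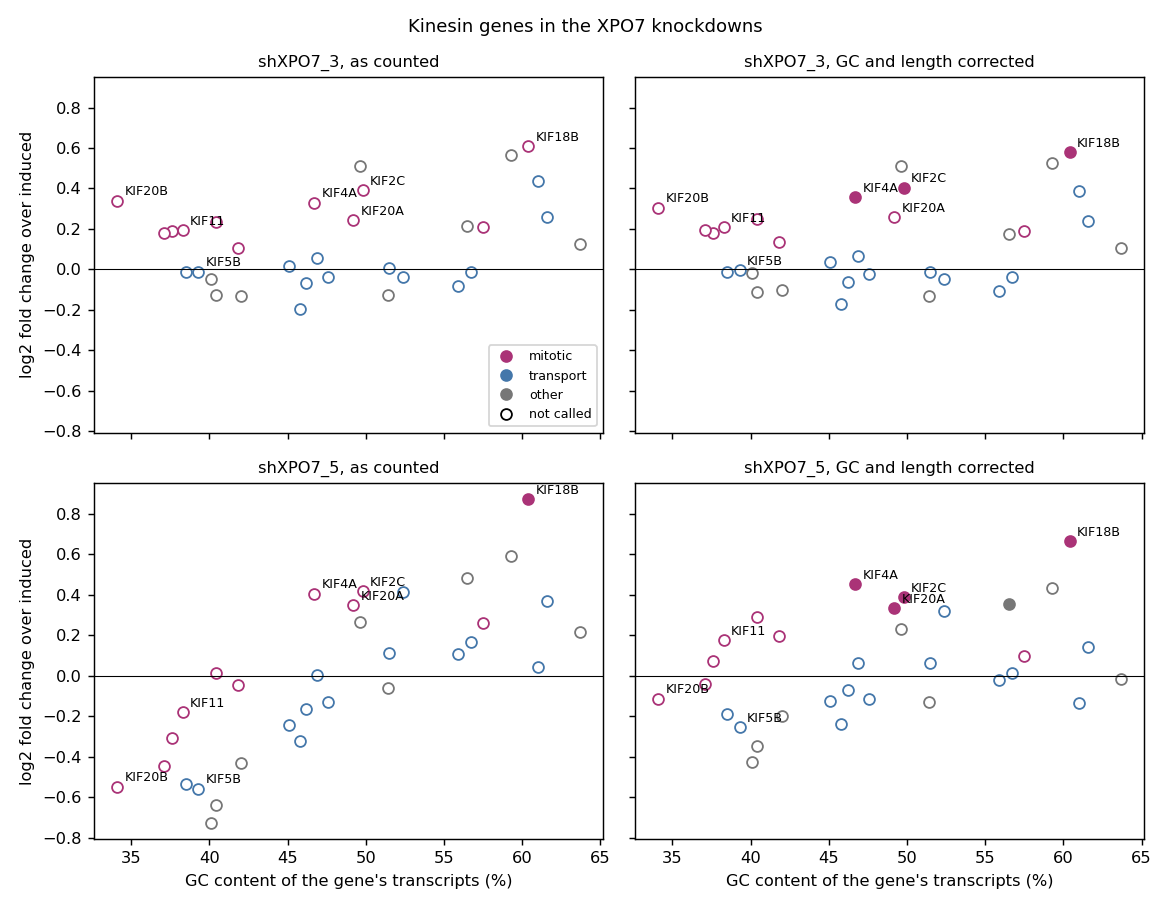
Log2 fold change over induced cells against the GC content of the gene's transcripts in percent, for the 32 members with shXPO7_3 (top) and shXPO7_5 (bottom), as counted (left) and corrected for GC content and length (right); filled circles were called. With shXPO7_5 the values as counted rise with GC content from KIF20B at 34.1% to KIF18B at 60.4%, and the slope is smaller after correction.

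The levels of mitotic members in both knockdowns stayed far below those of non-induced cells. In all 11 of them each of the 9 induced libraries, with or without a hairpin, lay below each non-induced library. Relative to non-induced cells KIF18B was at 9.38% in induced cells, 14.5% with shXPO7_3 and 17.3% with shXPO7_5, KIF4A at 14.3%, 17.9% and 18.9%, and KIF22, the highest, at 33.1%, 38.3% and 39.7%. The mitotic share of summed mitotic and transport levels per kb was 13.8%, 13.2% and 12.6% with shXPO7_3 and 14.1%, 13.5% and 13.6% with shXPO7_5, above the induced values of 10.9% to 11.3%. The summed mitotic level itself was 21.4 ± 1.19 and 19.8 ± 1.92 CPM per kb against 18.03 ± 0.988 in induced cells. With shXPO7_5 its libraries (19.06, 21.96 and 18.34) overlapped the induced ones (17.72, 19.14 and 17.24), and with shXPO7_3 (20.01, 22.17 and 21.94) they did not. The transport sum was 140.9 ± 14.4 with shXPO7_3 and 124.5 ± 13.97 with shXPO7_5 against 143.8 ± 6.66 in induced cells. It was 116.4 in shXPO7_5 T and in B, and these sums and shares were not corrected for GC content.

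Transport and other members gave no call in a knockdown as counted. The most abundant were KIF5B at 219.6, 361 and 382 CPM with shXPO7_3 and 174, 321 and 163 CPM with shXPO7_5, KIF1C at 234, 182 and 199 CPM with shXPO7_3 and 242, 202 and 257 CPM with shXPO7_5, and KIF3B at 159, 170.3 and 169 CPM with shXPO7_3 and 150.2, 162 and 154 CPM with shXPO7_5. KIF5B was again low in the libraries that followed GC content, and KIF1C, at 55.9% GC, was high in them. KIF1B was at 118, 122 and 123 CPM with shXPO7_3 and 112, 123 and 104 CPM with shXPO7_5, KIF13A at 66.5, 72.3 and 72.8 CPM with shXPO7_3 and 66.2, 74.1 and 63.7 CPM with shXPO7_5 and KIF3C at 71.2, 60.2 and 62.03 CPM with shXPO7_3 and 78.8, 64.03 and 76.7 CPM with shXPO7_5. KIF3A was at 25.00, 41.8 and 39.5 CPM with shXPO7_3 and 18.7, 35.00 and 20.4 CPM with shXPO7_5, and KIF17 at 1.37, 1.09 and 1.21 CPM with shXPO7_3 and 1.31, 1.03 and 1.61 CPM with shXPO7_5. The 13 transport members ranged from -0.19 to 0.44 on the log2 scale with shXPO7_3 and from -0.56 to 0.41 with shXPO7_5. KIF21B, already raised in OIS, was at 4.36, 3.59 and 3.74 CPM with shXPO7_3 (log2 fold change 0.57, adjusted p = 0.348) and 4.68, 3.65 and 3.604 CPM with shXPO7_5 (0.59, 0.123). Every knockdown library of KIF21B lay above every induced one. KIF24 was at 2.96, 3.20 and 3.0 CPM with shXPO7_3 (0.51, 0.428) and 2.06, 2.27 and 3.33 CPM with shXPO7_5 (0.26, 0.309). Neither was called with either hairpin, as counted or corrected. The 8 other members tested ranged from -0.13 to 0.57 with shXPO7_3. With shXPO7_5 they ranged from -0.73 (KIF27) to 0.59, with KIF26B at 0.48.

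Among the lists, as counted, the mitotic partners had 17 of 20 values above 0 with shXPO7_3, none of them called, and 15 of 20 with shXPO7_5. With the latter PLK1 (0.72, adjusted p = 0.0265), the passenger kinase AURKB (0.63, 0.0285) and the passenger subunit CDCA8 (0.57, 0.0324) were called higher. GLI1, a target and effector of Hedgehog signalling, was called higher with shXPO7_5 (0.75, adjusted p = 0.0353), as was the fibroblast marker PDGFRB (0.58, adjusted p = 0.0255). These 5 calls were lost, like that of KIF18B, without any 1 of induced T, A and B (adjusted p between 0.0781 and 0.172), without shXPO7_5 T or B (between 0.0756 and 0.132) and in the fit to only these groups. The calls of CDCA8 and GLI1 were also lost without non-induced A (0.0574 and 0.055), that of CDCA8 without shXPO7_3 B (0.0519) and that of GLI1 without shXPO7_3 A (0.0512). The 12 fibroblast markers summed to 21620 to 26200 CPM with shXPO7_3 and 23500 to 27050 CPM with shXPO7_5, against 20980 to 22550 CPM in induced libraries, and the 7 epithelial markers to 42.0 to 51.8 and 46.0 to 60.99 against 41.5 to 47.8 CPM, and their part in the kinesin values was not tested. No gene of the accessory, dynein, tubulin or intraflagellar transport lists was called with either hairpin. The corrected fit called 4 of 20 mitotic partners higher with shXPO7_3, against 1.6% of all genes, and 5 of 20 with shXPO7_5, against 2.24%. Between the hairpins no member differed by the test and 0.0131% of all genes were called, which with 3 libraries a group does not show that they acted alike: the interval of shXPO7_5 over shXPO7_3 for KIF18B was -0.034 to 0.55 on the log2 scale, around a difference of 0.26.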

How the data were processed

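RNA was measured in 12 libraries, 3 in each of 4 groups taken from the labels. Per the submitters' processing notes the authors used CASAVA 1.8.4, TopHat2 2.0.11 and featureCounts 1.18.0 with hg19/GRCh37, and deposited raw read counts per Ensembl gene. For the annotation, the strand setting and reads that match several genes, the choices made were not given in the sources used here. An Illumina kit that marks strand was used. The table holds 62069 genes and 92 spike-in entries, all at 0. Symbols were matched by Ensembl ID to a reference list of gene names and, where that held none, to GENCODE 29. Biotypes came from GENCODE 29, and 50409 genes had a symbol.

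Counts were tested with edgeR 4.0.16 (R 4.3.3), using TMM factors, the filterByExpr filter and a quasi-likelihood fit to all 12 libraries without covariates. P-values were two-sided and adjusted by Benjamini-Hochberg over 15284 genes. An exact permutation test of 3 against 3 libraries cannot go below p = 0.1, so single genes rest on the fit. No pair of libraries of a group agreed within sampling noise. Depth (28534141 to 60397769 counts) limits precision mainly for members under 1 CPM. The correction used natural splines with 5 degrees of freedom each on GC content and log2 length, fitted per library without groups, and 97.3% of tested genes had both. Promoter windows came from RefSeq (GRCh38.p14) by symbol and are separate from the build of the counts. Scripts were tested on simulated data.

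The members and lists were chosen with earlier results of these data known. Values per library are given for the mitotic members tested, the 6 most abundant transport members, the 3 largest rises and 3 largest falls among members called on induction outside the mitotic class, members called in a knockdown, and XPO7. Up to 3 called genes were named per list, and 1 of them is not reported here. ECT2 and the undetected markers PECAM1 and CDH5 were added after their values were seen. Alternatives were RLE and upper-quartile factors, 2 filters, a block on the replicate letter, a fit to 2 groups, DESeq2 1.42.0, the correction, leaving out each library, other classes for KIF2A, KIF21A and KIF21B, and a minimum log2 fold change of 1.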

Additional observations from a re-analysis of the deposited data

How the results depend on the processing

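All 11 mitotic members tested were called lower in OIS under every alternative run. Of 1313 single-gene values in OIS recomputed under alternatives, 1285 kept direction and call, against 244 of 252 for shXPO7_3 and 305 of 378 for shXPO7_5. The number of genes recomputed differed between the comparisons. With shXPO7_3 no member or list gene was called as counted, so their values there had no call to lose. These counts therefore do not rank the comparisons by stability. The count of members called with shXPO7_5 (1) became 2 with RLE factors, the filter on 1 CPM and the replicate block, 5 with DESeq2 and with the GC content and length correction, 6 with the correction and the replicate block, and 0 in the fit to 2 groups and with a minimum log2 fold change of 1. Leaving out 1 library gave 0 to 13. Shares of all genes called are given here only for the fit as counted and for the correction. With shXPO7_3 the count (0) became 3 with the correction, with or without the block. In OIS the transport members called higher (2) became 6 with the correction, 7 with correction and block and 0 with the minimum fold change, and those called lower (3) became 1 with that minimum.

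The mitotic OIS median (-2.42) was -2.10 with the replicate block and -2.63 to -2.18 without 1 library. The transport OIS median (0.19) was 0.088 with upper-quartile factors, which moved the median of all genes to -0.105, 0.28 with correction and block, and 0.13 to 0.19 without 1 library. The transport median with shXPO7_3 was -0.055 to 0.010 without 1 library. With shXPO7_5 (0.0053) it was 0.054 with upper-quartile factors, -0.071 with the correction, with or without the block, -0.065 in the fit to 2 groups and -0.091 to 0.035 without 1 library.

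Genes of the partner and pathway lists called higher in OIS (21) became 36 with the correction, with or without the block, and 2 with the minimum fold change, and those called lower (39) became 19 with it. Over all genes the share called higher in OIS also went up with the correction, from 24.8% to 35.5%. With shXPO7_3 those called higher (0) became 1 with DESeq2, 7 with the correction and 8 with correction and block. With shXPO7_5 those called higher (4) became 8 with DESeq2, 9 with the correction, 12 with correction and block, and 0 in the fit to 2 groups and with the minimum fold change, and 0 to 21 without 1 library. Those called lower (0) became 1 with correction and block and 0 to 15 without 1 library. Among all 15284 genes, the correction took calls higher from 14 to 244 with shXPO7_3 and from 73 to 342 with shXPO7_5. For the other settings such counts are not given here, so the list counts are not read as results about the lists.

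Signs turned in members that were not called. With shXPO7_5 the correction gave KIF11 0.18, KIF14 0.072 and KIF23 0.20, and correction and block 0.17, 0.047 and 0.20, where KIF23 was called (adjusted p = 0.0474). Without 1 library, KIF23 ran from -0.21 to 0.041 (0.041 without shXPO7_5 T and 0.021 without B). KIF15 was at -0.050 with the block, -0.030 without induced T, -0.068 without induced B and -0.43 without shXPO7_5 A, with 0.23 as its highest value without 1 library. With shXPO7_3, KIF18A was at -0.029 without induced B and -0.019 without shXPO7_3 B, with 0.40 as its highest value. In OIS, KIF2A was at 0.19 with the block, 0.063 with correction and block, and between -0.17 and 0.14 without 1 library, positive (0.0048 and above) without non-induced A or C or induced B. KIF5B ran from -0.045 without non-induced T to 0.51 without non-induced C. The cause of these changes was not tested.

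Libraries were not treated as paired by their replicate letter, and whether the letters mark pairs is not settled here. Correlations of same-letter deviations from group means were 0.0918 and 0.237 between induced and non-induced, -0.192 to 0.1 between shXPO7_3 and induced, -0.0995 to 0.346 between shXPO7_5 and induced, and -0.443 to 0.575 between the hairpins. With 3 libraries a group, and libraries that differed in how their levels followed GC content, these values cannot decide it.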
